A study of Homo sapiens with 12 samples.

Results

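C2H2 zinc finger genes encode the largest class of human sequence-specific DNA-binding proteins. Each finger folds around a zinc ion held by a pair of cysteines and a pair of histidines and reads a few bases of DNA, so that an array of fingers recognises a longer site. Many members also carry a KRAB domain, which recruits the corepressor TRIM28 and heterochromatin proteins, or a SCAN domain, through which the proteins pair, and many of their genes lie in clusters on chromosome 19. The genes were taken by symbol, as those whose RefSeq name begins with ZNF, ZSCAN, ZKSCAN or ZFP followed by a number. Of 6375 genes with footprints on a coding open reading frame (ORF), 169 had such a symbol, and the 114 with at least 50 footprints summed over all libraries are described here. The members were thus chosen by their summed footprints besides their symbols, and these levels are given as a description. They were 103 ZNF, 4 ZSCAN, 3 ZKSCAN and 4 ZFP genes. A further 10 genes were left out because their ORFs could be placed in more than 1 RefSeq gene, at least 1 of which had such a symbol. Of these, 6 reached 50 footprints.

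The cells were HEK293, a human line derived from embryonic kidney and transformed with adenovirus DNA. Ribosome footprints were prepared from the monosome fraction, in which 1 ribosome sits on an mRNA, and from the polysome fraction, in which several do. Both fractions were taken from cells starved of serum for 2 h, from cells starved of amino acids for 1 h in a balanced salt solution that still held vitamins and serum, and from cells in log phase in full medium with serum. All cells were lysed in cycloheximide, and each of the 6 groups had 2 libraries, lettered A and B, which no label describes as separate cultures. The p-values below therefore measure only the spread between these libraries, which may be technical. A footprint count follows both the mRNA level and its translation, which cannot be told apart here, and neither can fewer cells with a footprint and fewer footprints per cell.

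Coding footprints numbered 119947 to 346200 in the monosome libraries and 1493881 to 5313462 in the polysome libraries. Among markers chosen for a HEK293-type line, the neurofilament genes NEFM and NEFL had 26229.3 and 9724.9 coding footprints over the 12 libraries. VIM had 2360.4, while KRT8 had 19.2. COL1A1, a fibroblast gene, had 51.8, and no coding ORF was called for PTPRC, ALB, PECAM1 or GFAP, nor for INA and KRT18, which HEK293 cells are known to express. The monosome A libraries of log phase and of amino acid starvation stood apart in a few genes. Of 2341 genes with at least 10 footprints in both, 5 had more than 10 times the footprints of the B library of the same group in both conditions. ZNF622 and ZNF484 were among them. A 9-nt internal ORF of ZNF281, which is not a coding ORF and is not summed here, had 1432.7 footprints in the amino acid starvation monosome A library and 1849.9 in the log phase one, against 0.0 to 36.1 in every other library. For ZNF622 and ZNF484 the tests of monosomes against polysomes are given with and without these libraries.

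The members held 34709.8 footprints, or 0.171% of all coding footprints, and 86.2% of these came from polysomes. The median member had 89.9 footprints over the 12 libraries, 12.5 of them in the 6 monosome libraries and 78.1 in the 6 polysome libraries. The 12 members with the highest totals held 61.8% of the sum, and 62 members had fewer than 100 footprints. The values at the threshold ran from 50.1 in ZNF536, 51.0 in ZNF786 and 51.9 in ZNF582 just inside it to 49.5 in ZNF554, 49.3 in ZFP1 and 48.7 in ZNF527 just outside. Because the total is mostly polysome signal, the threshold favours genes that are high in polysomes.

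Most of the ORFs behind these sums were fragments of the annotated protein. The ORF with the most footprints was a truncated form in 81 members, a variant in 23 and the annotated coding sequence in 10. It began with ATG in 17 members (14.9%, against 20.2% of all genes with a coding ORF) and had a caller p-value under 0.05 in 50 (43.9%, against 67.0% of all genes). These ORFs had a median length of 1136 nt, against 600 nt for all genes, and ranged from 27 to 7695 nt. Few were of intermediate length: 51 were shorter than 600 nt, 54 had at least 1200 nt and 9 lay between. Many members called below in monosomes against polysomes over all conditions rest on ORFs with a caller p-value of 0.05 or more. Only ZNF33A, ZNF112, ZNF124, ZNF131, ZNF410, ZNF594 and ZFP91 among them had a caller p-value under 0.05 for this ORF. On chromosome 19 lay 48 of the 114 members (42.1%), against 6.60% of all genes with a coding ORF.

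Promoter sequence is shown because the symbol rule did not use it and a sequence motif stood in it more often than in the other named genes as a whole. The motif, CGGAAG, is the core of sites bound by ETS transcription factors such as GABPA. RefSeq promoters of GRCh38.p14, from 250 bases before to 50 after the start, were matched by symbol for 99 of the 114 members. CGGAAG, or its complement CTTCCG on the other strand, stood in 59 of the 99 promoters (59.6%), against 35.6% of the 4832 other named genes with a coding ORF and a promoter and 19.9% of all 27305 promoters. It stood in 63.6% of the promoters of 55 cytosolic ribosomal protein genes, so that a high share was not seen in the members alone. The share was 66.7% of the 42 matched members on chromosome 19 and 54.4% of the 57 elsewhere. The last 60 bases before the start are printed below for some of the members that passed a test of monosomes against polysomes or that had high totals. CGGAAG or CTTCCG is in capitals.
ZNF622 (chr5:16465801-16465860, minus strand): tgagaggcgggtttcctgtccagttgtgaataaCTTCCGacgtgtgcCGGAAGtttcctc
ZNF410 (chr14:73886799-73886858, plus strand): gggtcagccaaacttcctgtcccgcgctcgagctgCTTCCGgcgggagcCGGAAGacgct
ZNF740 (chr12:53180662-53180721, plus strand): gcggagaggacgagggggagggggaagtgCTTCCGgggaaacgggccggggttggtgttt
ZNF112 (chr19:44356705-44356764, minus strand): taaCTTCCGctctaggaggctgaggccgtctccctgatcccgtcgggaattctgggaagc
ZNF124 (chr1:247172021-247172080, minus strand): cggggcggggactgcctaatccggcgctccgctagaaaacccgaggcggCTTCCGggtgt
ZNF776 (chr19:57746755-57746814, plus strand): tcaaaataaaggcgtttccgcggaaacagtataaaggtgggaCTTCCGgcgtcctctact
ZNF33A (chr10:38010615-38010674, plus strand): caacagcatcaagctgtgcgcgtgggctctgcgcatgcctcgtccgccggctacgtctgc
ZFP91 (chr11:58579003-58579062, plus strand): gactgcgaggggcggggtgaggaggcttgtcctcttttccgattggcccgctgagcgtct
Both ZNF410, which was lower in monosomes, and ZNF622, which was higher, hold the motif on both strands. ZNF33A and ZFP91, both higher in monosomes, hold it on neither strand in the whole matched promoter. How common the motif is among such members cannot be read from the printed choice. Of called or high-total members not printed, ZSCAN12 and ZNF121 hold it in the last 60 bases. ZNF131, ZNF234, ZNF484, ZNF594, ZNF655, ZNF639, ZNF346, ZNF428, ZNF330 and ZNF286A, also not printed, do not hold it there. In the whole matched promoter ZNF131, ZNF234, ZNF594 and ZNF655 do hold it, and the others of this list do not. The letters CCAAT, or ATTGG on the other strand, stood in 46.5% of the members' promoters, against 37.9% of those of the other named genes and 35.7% of all promoters. A C at the start followed by 4 pyrimidines, the form of the 5' terminal oligopyrimidine tract of ribosomal protein mRNAs, was present in 6 members (6.06%), against 6.37% of the other named genes and 61.8% of 55 cytosolic ribosomal protein genes. A match of letters is not a site, and none of these shares was tested.

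The share of each library's coding footprints that fell on the members was higher in monosomes than in polysomes in every pair of libraries, but a single gene set its size in 2 pairs. In serum-starved cells the members took 0.188% of the A and 0.312% of the B monosome footprints, against 0.139% and 0.158% of the polysome footprints. In amino acid-starved cells the shares were 0.506% and 0.202% in monosomes, against 0.174% and 0.183% in polysomes. In log phase they were 0.531% and 0.227% in monosomes, against 0.158% and 0.162% in polysomes. The polysome shares thus lay within a narrow range in all conditions, and both of the highest monosome shares came from A libraries. Without ZNF622 these became 0.170% in amino acid starvation and 0.198% in log phase.

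Leaving out ZNF622, the monosome share was 1.35 times the polysome share in the A pair and 1.95 times in the B pair of serum-starved cells. The same ratios were 0.987 and 1.08 in amino acid starvation and 1.26 and 1.38 in log phase. Only the serum starvation monosome B library, at 0.306% without ZNF622, lay above 0.221%. All 169 genes with a family symbol and a coding ORF gave nearly the same ratios without ZNF622. They were 1.36 and 2.04 in serum-starved cells, 0.996 and 1.09 in amino acid-starved cells and 1.31 and 1.43 in log phase. Most of these footprints came from the members, so this sum says little about the threshold on the total. The 55 genes below the threshold had higher ratios in every pair, at 1.798 and 3.505 in serum-starved cells. Theirs were 1.176 and 1.289 in amino acid-starved cells and 3.038 and 2.292 in log phase. These genes held few monosome footprints, from 10.8 to 101.5 per library. Members on chromosome 19 had ratios of 1.10 and 2.06 in serum-starved cells, 0.962 and 1.08 in amino acid-starved cells and 1.41 and 1.79 in log phase. Members elsewhere, again without ZNF622, had 1.43 and 1.92, 0.996 and 1.08, and 1.21 and 1.27 in the same order of conditions.

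**Figure D1:**
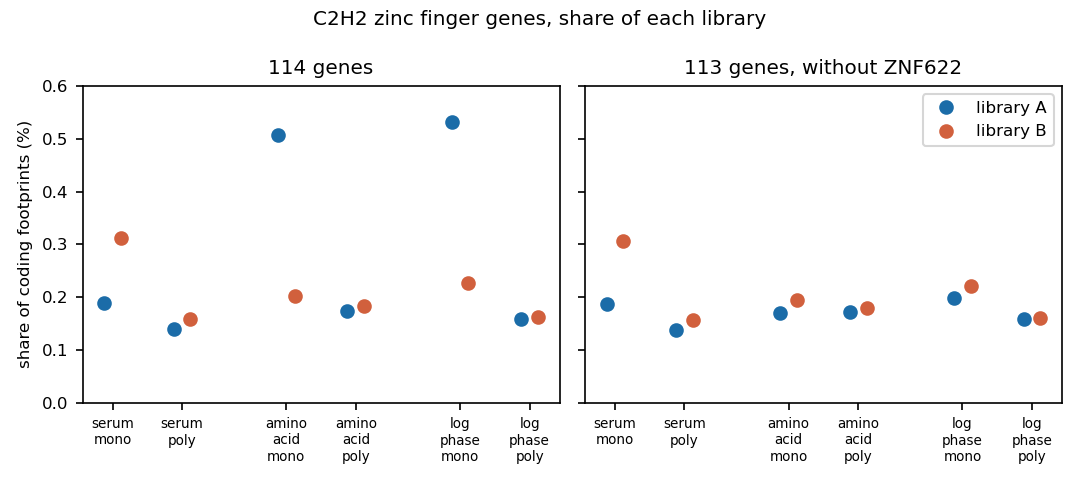
Share of coding footprints (%) that fell on the C2H2 zinc finger genes in each library, for all 114 genes (left) and without ZNF622 (right); each point is 1 library, blue for A and orange for B, and mono and poly are the fractions. The 2 highest A libraries on the left drop to 0.170% and 0.198% without ZNF622, and the serum starvation monosome B library is the highest on the right.

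Testing per gene was limited by the low monosome counts. Of the 114 members, 68 passed the filter on low counts and 46 did not. The filter asks for about 10.9 CPM (counts scaled to library size, here without TMM factors) in at least 2 libraries. Of the 68, 33 reached that level in 2 polysome libraries. The CPM values of single genes given below include TMM factors, so they can lie on the other side of the filter level. The other 35 (51.5%, against 12.5% of all 4765 tested genes) passed only with the help of monosome libraries, so they had to be high there. Counts and medians over the 68 carry that choice, and the 33 are therefore given beside them.

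Over the mean of the 3 conditions, 16 of the 68 tested members (23.5%) were higher in monosomes and 2 (2.94%) were lower, by edgeR's quasi-likelihood test with Benjamini-Hochberg adjusted p under 0.05 over all genes. Of all tested genes 17.0% were higher and 21.8% lower, and 38.8% passed in either direction. The total of 18 calls fell to 5, and the members' median of 0.69 to 0.20, when the serum starvation monosome B library was left out, and 5 members passed without the monosome A libraries of log phase and amino acid starvation. With the letter as a block 22 members were higher and 3 lower, beside 23.9% and 30.3% of all tested genes. Of the 33, 8 (24.2%) were then higher and 3 (9.09%) lower, beside 844 and 1444 of the 4167 genes at the polysome filter level. The median log2 of monosome over polysome was 0.69 for the members and -0.18 for all tested genes. Among the 33 members that reached the filter level in 2 polysome libraries, 6 (18.2%) were higher and 2 (6.06%) lower, with a median of 0.35, beside 13.8% and 24.9% of the 4167 tested genes that did so, with a median of -0.34. All 6 monosome libraries lay above all 6 polysome libraries in 5 members (7.35%) and below them in 1 (1.47%), against 9.61% and 12.0% of all tested genes. Of the 33, 0 (0%) lay above and 1 (3.03%) below in this way, beside 8.14% and 13.7% of the 4167 genes. The 5 members above had thus all passed the filter only with the help of monosome libraries. Within conditions, both monosome libraries lay above both polysome libraries in 27 members (39.7%) in serum starvation, 27 (39.7%) in amino acid starvation and 23 (33.8%) in log phase, against 20.2%, 28.4% and 26.5% of all tested genes. They lay below in 7 (10.3%), 11 (16.2%) and 6 (8.82%) members, against 28.0%, 33.2% and 31.7%. Of the 33 members at the filter level in 2 polysome libraries, 11 (33.3%), 12 (36.4%) and 5 (15.2%) lay above in these conditions, beside 16.8%, 25.7% and 21.5% of the 4167 genes. Below lay 5 (15.2%), 7 (21.2%) and 6 (18.2%) of the 33, beside 31.5%, 37.1% and 35.9% of these genes. Among the single conditions, the share of the 33 that lay above was thus the lower one in log phase only. The share that lay below was lower than that of these genes in every condition.

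The 2 letters differed in how far the members leaned. In serum starvation the median log2 of monosome over polysome was -0.04 in the A pair and 1.22 in the B pair, against -0.43 and 0.00 for all tested genes. In amino acid starvation it was 0.51 and 0.37, against -0.16 and -0.08, and in log phase 0.25 and 0.61, against -0.18 and -0.02. For the 33 members at the filter level in 2 polysome libraries it was -0.24 and 0.94 after serum withdrawal, 0.08 and 0.37 after amino acid withdrawal and -0.37 and 0.35 in log phase, so that the A and B medians took opposite signs in serum starvation and log phase. The medians of the 4167 genes at that level were -0.46 and -0.15, -0.25 and -0.21, and -0.33 and -0.20 in these pairs, and the 33 lay below them in log phase A. Over the mean of the 3 conditions 35 members (51.5%) were above 0 in both letters and 8 (11.8%) below 0 in both, against 30.5% and 42.1% of all tested genes. Of the 33, 16 (48.5%) were above 0 in both and 7 (21.2%) below, beside 26.3% and 47.4% of the 4167 genes.

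**Figure D2:**
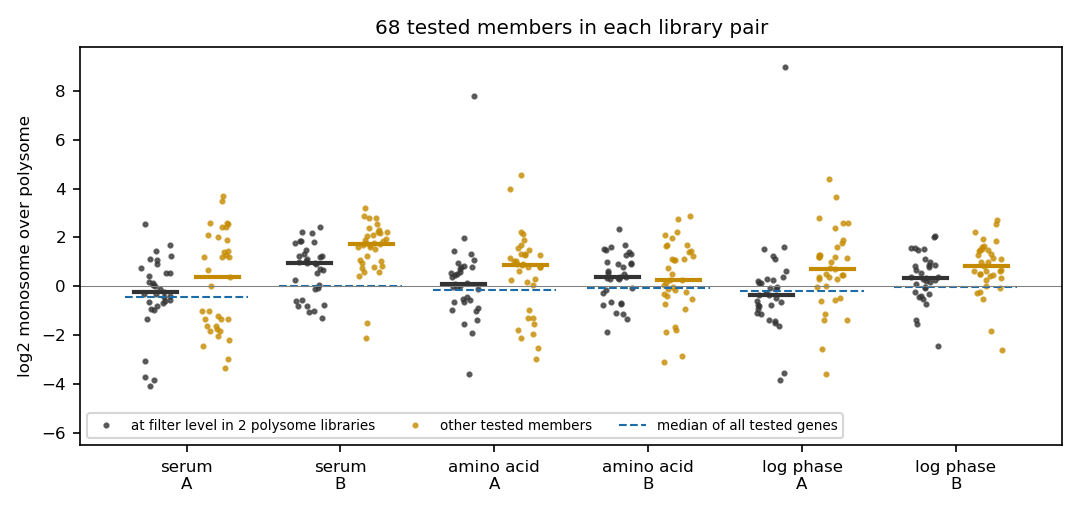
Log2 of monosome over polysome (CPM with a prior count of 2) of the 68 tested members in each library pair; points are genes, thick bars their medians, black for the 33 at the filter level in 2 polysome libraries, ochre for the other 35, and the dashed blue line the median of all tested genes. The black median ranges from -0.37 in log phase A to 0.94 in serum starvation B, and the highest point in the amino acid A pair (7.79) and in the log phase A pair (8.97) is ZNF622.

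ZNF622, whose yeast counterpart Rei1 acts in the late maturation of the large ribosomal subunit, had by far the highest log2 ratio. It had 2.3 and 17.6 footprints in the serum starvation monosome A and B libraries, 581.8 and 15.2 in those of amino acid starvation and 962.0 and 19.6 in those of log phase, against 21.2 and 54.8, 25.3 and 70.7, and 23.3 and 27.4 in the polysome libraries. Both high values were in the A libraries named above, and the B libraries of the same groups held no such excess. On the CPM scale every monosome value (17.8 to 3596 CPM) except that of serum starvation A lay above every polysome value (5.71 to 23.8 CPM). The log2 ratio was 5.36 ± 0.96 (SE, adjusted p = 0.000724, edgeR), and 2.05 (adjusted p = 0.0142) without the A monosome libraries of log phase and amino acid starvation.

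ZNF484, a KRAB gene, followed the same libraries. It had 0.0 and 7.2 monosome footprints in serum-starved cells, 16.1 and 0.1 in amino acid-starved cells and 25.7 and 1.5 in log phase, against 5.2 to 14.6 in the polysome libraries. Its log2 ratio of 3.24 ± 0.79 (SE, adjusted p = 0.00565, edgeR) became -1.01 (adjusted p = 0.775) without both A libraries and 0.12 (adjusted p = 0.942) without the amino acid one alone. Both of these values depend on the prior count, since 0.1 footprints were then left in the amino acid monosomes, and the call of ZNF484 rests on those libraries. The gene was tested only with the help of its monosome libraries.

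Of the KRAB genes, ZNF124, ZNF776 and ZNF33A passed the test with any 1 of the 12 libraries left out. ZNF33A reached the filter level in 2 polysome libraries, whereas ZNF124 and ZNF776 were tested only with the help of their monosome libraries, which had to be high. ZNF776 had 53.4 and 38.7 CPM in the monosomes of serum-starved cells, 12.4 and 18.3 CPM in those of amino acid-starved cells and 14.5 and 11.0 CPM in log phase monosomes, against 3.56 and 3.08, 5.41 and 5.03, and 9.69 and 3.60 CPM in polysomes. Its groups did not overlap, and its log2 ratio was 2.06 ± 0.46 (SE, adjusted p = 0.00314, edgeR). These values rest on 32.2 monosome and 93.9 polysome footprints in all. They come from 1 truncated ORF of 42 nt with a caller p-value of 0.771.

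ZNF124 had 26.7 and 8.94 CPM in serum starvation monosomes, 12.4 and 22.9 CPM in amino acid starvation monosomes and 14.5 and 16.5 CPM in log phase monosomes, against 2.05 to 5.22 CPM in the 6 polysome libraries. Its groups were also separate, with a log2 ratio of 2.31 ± 0.52 (SE, adjusted p = 0.00304, edgeR) from 23.9 monosome footprints. ZNF33A had more footprints, 80.8 in monosomes and 490.6 in polysomes. It had 80.1 and 77.5 CPM in serum starvation monosomes, 43.3 and 36.7 CPM in those of amino acid starvation and 57.8 and 41.2 CPM in those of log phase, against 24.2 and 21.1, 21.6 and 18.5, and 47.7 and 23.0 CPM in polysomes. Within each letter its monosome value exceeded its polysome value in all 3 conditions, and across conditions only the log phase polysome A value overlapped the monosome range. The log2 ratio of ZNF33A was 1.08 ± 0.31 (SE, adjusted p = 0.0140, edgeR), and its adjusted p was 0.12 without both A libraries named above.

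ZNF112 and ZNF155, also KRAB genes, had non-overlapping groups on few footprints. Both, and ZNF234 below, were tested only with the help of their monosome libraries, which had to be high. ZNF112 had 30.2 monosome and 57.6 polysome footprints, at 6.18 to 35.8 CPM in monosomes, against 1.74 to 4.96 CPM in polysomes, and a log2 ratio of 2.57 ± 0.54 (SE, adjusted p = 0.00214, edgeR). Leaving out the serum starvation monosome B library gave adjusted p = 0.0794, and leaving out the amino acid starvation one gave adjusted p = 0.0829. ZNF155 had a log2 ratio of 1.71 ± 0.53 (SE, adjusted p = 0.0199, edgeR) from 18.5 monosome footprints, and 5 of the 12 fits that left out 1 library lost the call. ZNF234, the KRAB gene next to it by size of ratio, had 1.70 ± 0.65 (SE, adjusted p = 0.0493, edgeR) and a value of -0.36 (adjusted p = 0.894) once the amino acid starvation monosome B library was left out, which left 0.3 footprints in that group and a value that depends on the prior count.

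The remaining members with large ratios belong to other classes. ZNF462, ZNF594 and ZSCAN12 were likewise tested only with the help of their monosome libraries, which had to be high. ZNF462, a large multi-finger protein whose loss causes a neurodevelopmental syndrome, had 8.90 to 37.1 CPM in monosomes, against 0.00 to 6.04 CPM in polysomes, and a log2 ratio of 2.89 ± 0.76 (SE, adjusted p = 0.00857, edgeR). Its groups did not overlap, and leaving out the serum starvation monosome B library gave adjusted p = 0.166. ZNF594 reached 2.25 ± 0.68 (SE, adjusted p = 0.0176, edgeR) on 18.4 monosome footprints. ZSCAN12, a SCAN domain gene, reached 1.93 ± 0.66 (SE, adjusted p = 0.0319, edgeR), of which 14.2 of 27.3 monosome footprints came from the serum starvation B library. Without that library the group held 0.0 footprints, and the log2 ratio of ZSCAN12, which then depends on the prior count, was -0.90 (adjusted p = 0.837).

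**Figure D3:**
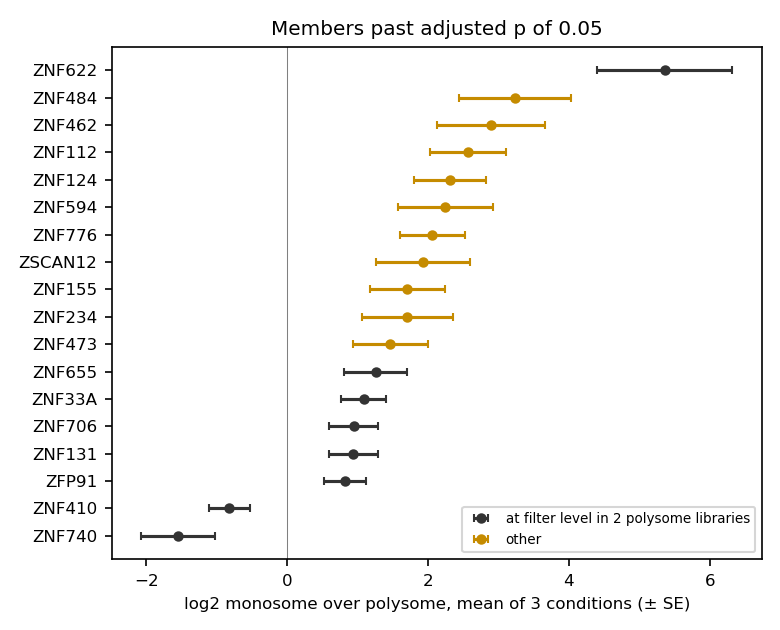
Log2 of monosome over polysome over the mean of the 3 conditions, with its SE from edgeR, for the 18 members with adjusted p under 0.05; black members reached the filter level in 2 polysome libraries, ochre ones did not. The 10 ochre genes all lie above 0, the side from which they could enter, while the 8 black ones lie on both sides.

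ZFP91 and ZNF706 are among the members with the highest totals. ZFP91, a ubiquitin ligase that is degraded in the presence of thalidomide-type drugs, had 125 and 227 CPM in serum starvation monosomes, 30.9 and 73.4 CPM in amino acid starvation monosomes and 72.3 and 96.1 CPM in log phase monosomes, against 65.9 and 48.0, 42.7 and 47.6, and 61.4 and 52.7 CPM in polysomes. Its monosome level was the higher one in 5 of 6 pairs, and the amino acid A pair ran the other way. The log2 ratio of ZFP91 was 0.82 ± 0.30 (SE, adjusted p = 0.0398, edgeR), and 9 of the 12 fits that left out 1 library lost the call.

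ZNF706, a short protein with a single finger, had 196 and 203 CPM in serum starvation monosomes, 117 and 124 CPM in amino acid starvation monosomes and 170 and 198 CPM in log phase monosomes, against 133 and 44.1, 84.7 and 41.6, and 155 and 68.0 CPM in polysomes. The monosome value was higher in all 6 pairs, and the A polysome libraries lay above the B ones throughout. Its log2 ratio was 0.94 ± 0.35 (SE, adjusted p = 0.0423, edgeR), and the call was lost in 9 of the 12 fits that left out 1 library. ZNF131, a BTB domain protein, had 0.94 ± 0.35 (SE, adjusted p = 0.0462), ZNF655 had 1.25 ± 0.45 (SE, adjusted p = 0.0374), and ZNF473, which acts in 3' processing of histone pre-mRNA, had 1.47 ± 0.53 (SE, adjusted p = 0.0415), all by edgeR and each lost in 8 to 11 of the 12 fits without 1 library. Of these, ZNF473 was tested only with the help of its monosome libraries.

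Lower in monosomes were ZNF410 and ZNF740. ZNF410, which activates the chromatin remodeller gene CHD4, had 35.6 and 56.6 CPM in serum starvation monosomes, 24.7 and 41.3 CPM in those of amino acid starvation and 32.5 and 43.9 CPM in those of log phase, against 68.8 and 62.1, 74.5 and 70.1, and 71.5 and 74.3 CPM in polysomes. It was the 1 member with all monosome libraries below all polysome libraries. Its log2 ratio was -0.82 ± 0.29 (SE, adjusted p = 0.0357, edgeR), and 7 of the 12 fits that left out 1 library lost the call. ZNF740 had 2.74 to 17.8 CPM in monosomes, against 15.8 to 41.2 CPM in polysomes, and a log2 ratio of -1.55 ± 0.52 (SE, adjusted p = 0.0297, edgeR) from 12.0 monosome footprints, and 6 of those 12 fits lost the call. ZNF330, a nucleolar protein, had -0.87 ± 0.34 (SE, adjusted p = 0.0519, edgeR), and adjusted p = 0.0170 with the letter as a block.

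**Figure D4:**
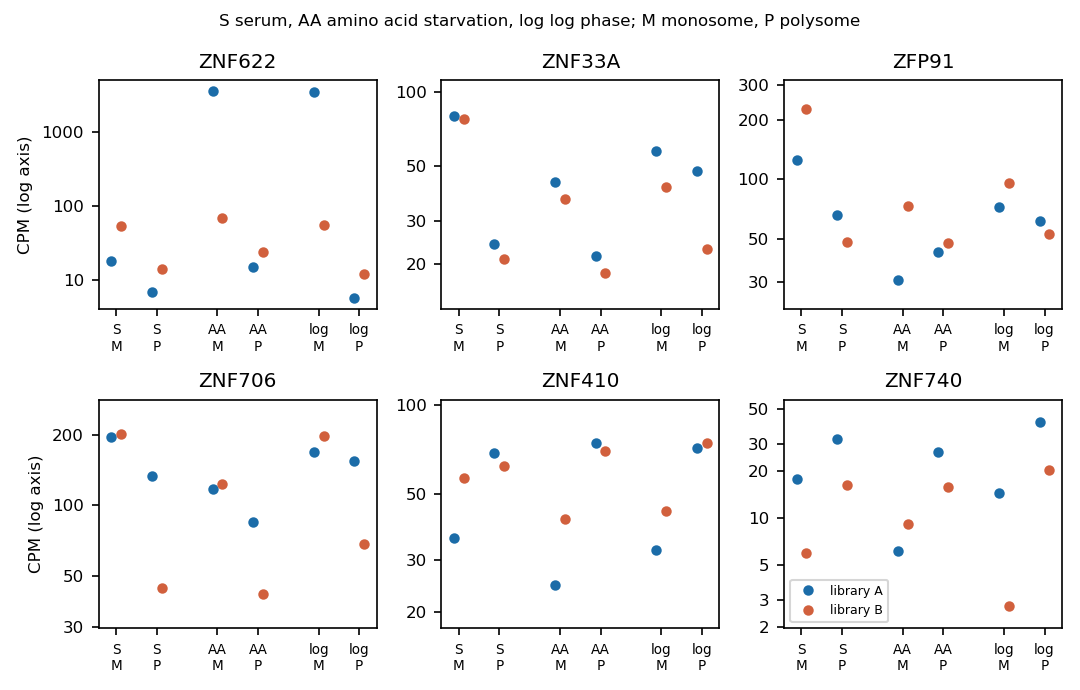
Level in each library (CPM, log axis with its own range per panel) of 6 members that passed the test over the 3 conditions; S is serum starvation, AA amino acid starvation and log is log phase, M monosomes and P polysomes, blue A and orange B libraries. ZNF622 stands at 3476 and 3596 CPM in 2 A monosome libraries and at 68.8 CPM or less elsewhere, and ZNF410 is the panel in which every monosome point lies below every polysome point.

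Levels per length were taken as footprints scaled to the library's coding total, without TMM factors, and divided by ORF length in kilobases. Among the 12 members with the highest totals, the ORF named ZNF593OS had the highest polysome mean in every condition and the highest A value, while ZNF330 was above it in all 3 B polysome libraries. It had 476 and 305 in the polysomes of serum-starved cells, 423 and 257 in those of amino acid-starved cells and 675 and 406 in those of log phase. The name follows from the position rule only: this 483-nt ORF lies on the plus strand of chromosome 1 (GRCh38, 26169906 to 26170716), opposite to ZNF593OS, and all but its first 2 bases lie inside ZNF593 (26169908 to 26170873), which encodes a factor of large ribosomal subunit assembly. ZNF330 had 410, 397 and 438 in the B polysome libraries of serum starvation, amino acid starvation and log phase, against 291, 264 and 338 in the A ones. By means ZNF330 and ZNF706 came next, at 330 to 388 and 213 to 288 over the conditions. ZNF639, whose log2 ratio of 0.11 ± 0.26 (SE, adjusted p = 0.769, edgeR) did not pass, varied little between groups, at 92.8 and 114, 113 and 81.1, and 93.2 and 110 in the monosomes of serum starvation, amino acid starvation and log phase, against 70.7 and 100, 105 and 92.9, and 94.5 and 88.5 in polysomes. ZNF703, a transcriptional repressor amplified in breast cancer, was higher in the B than in the A library of all 6 groups, at 98.1 against 28.9 in log phase polysomes.

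The members were also tested in each condition. In serum starvation 2 members were higher in monosomes and none lower, against 4.30% of all tested genes higher and 2.54% lower. These were ZNF776, with a log2 ratio of 3.73 ± 0.76 (SE, adjusted p = 0.0145, edgeR), and ZNF594, with 3.90 ± 0.98 (SE, adjusted p = 0.0309, edgeR), both among the 35 that passed the filter only with monosome libraries. The members' median was 1.01, and 0.14 when the monosome B library of that condition was left out, while that of the 33 members at the filter level in 2 polysome libraries was 0.50. With the letter as a block 15 members were higher (22.1%), beside 14.4% of all tested genes. Only 5 of these were among the 33 (15.2%), beside 504 of the 4167 genes at that level, and 10 were among the 35. The blocked calls included ZFP91, at 1.66 (adjusted p = 0.00303), ZNF33A, at 1.84 (adjusted p = 0.00287), ZNF706, at 1.38 (adjusted p = 0.0193), and ZNF326, a subunit of the DBIRD complex of splicing, at 1.92 (adjusted p = 0.0287).

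In amino acid starvation ZNF622 alone passed, at 6.54 ± 1.71 (SE, adjusted p = 0.0343, edgeR), against 5.56% of all tested genes higher and 1.55% lower in monosomes. Without the A monosome libraries of log phase and amino acid starvation its log2 ratio was 1.74 (adjusted p = 0.408). With the letter as a block 6 members were higher and 1 lower, beside 15.5% and 13.6% of all tested genes. Lower was ZNF121, at -1.44 (adjusted p = 0.0267), with 37.1 and 41.3 CPM in monosomes, against 98.6 and 107 CPM in polysomes. In log phase ZNF622 was again the only member that passed, at 7.64 ± 1.80 (SE, adjusted p = 0.0154, edgeR), against 6.25% of all tested genes higher and 5.10% lower, and 2.60 (adjusted p = 0.191) without those A libraries. The blocked fit gave 8 members higher and 1, ZNF740, lower, beside 16.5% and 17.9% of all tested genes.

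No member passed the test of starvation against log phase in either fraction. After serum starvation the polysome footprints of the members had a median log2 change of -0.13, against 0.00 for all tested genes, with -0.21 in the A and -0.11 in the B pair. Neither a member nor any other gene passed in that contrast by edgeR (0% called), nor with the letter as a block or by DESeq2, and 0 members had an unadjusted p under 0.05 by any of the 3. The smallest p-values were those of ZNF776, with 22.8 footprints in serum-starved polysomes, against 47.1 in log phase ones, of ZNF829, with 53.7 against 20.1, and of ZNF33A, with 157 against 243. Their log2 changes were -1.02 ± 0.68, 1.12 ± 0.74 and -0.65 ± 0.49 (SE, unadjusted p = 0.154, 0.154 and 0.203, edgeR).

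After amino acid starvation the median change in polysomes was -0.09 for the members and -0.10 for all tested genes, with -0.26 in the A and 0.02 in the B pair. By edgeR 0 members and 0% of all genes passed, and 0 members had an unadjusted p under 0.05. With the letter as a block 10.1% of all tested genes passed but 0 members, 5 of which had an unadjusted p under 0.05, and DESeq2 called 0 members as well. ZNF829, a KRAB gene, had 8.41 and 9.39 CPM in amino acid starvation polysomes, against 2.48 and 4.50 CPM in log phase polysomes, a log2 change of 1.37 ± 0.75 (SE, adjusted p = 0.597, edgeR). The ORF named ZNF593OS had 183 and 108 CPM, against 430 and 180 CPM, a change of -1.07 ± 0.61 (SE, adjusted p = 0.601, edgeR). For ZNF829 both starved values lay above both log phase values, whereas for the ZNF593OS ORF the groups overlapped.

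**Figure D5:**
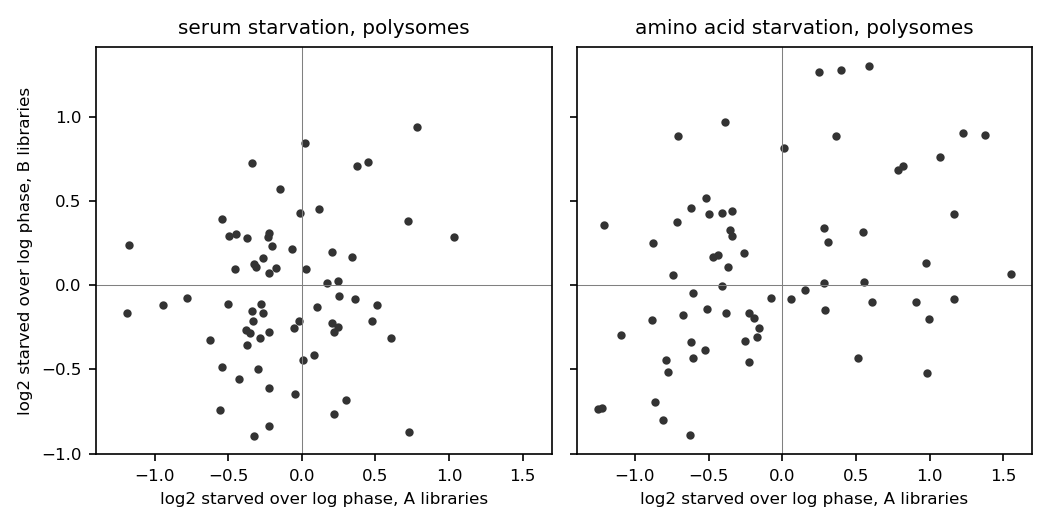
Log2 of serum starvation (left) and of amino acid starvation (right) over log phase in polysomes for the 68 tested members, with the A libraries on the x axis and the B libraries on the y axis (CPM with a prior count of 2); each point is 1 gene. In serum starvation 12 members lie above 0 in both letters, 24 below 0 in both and 32 are mixed, and in amino acid starvation 18, 24 and 26.

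Monosome footprints of the members had a median log2 change of 0.44 in serum starvation, against 0.01 for all tested genes, but it was 0.00 in the A and 0.66 in the B pair. No gene passed by edgeR (0% called). Unadjusted p-values under 0.05 were found for 5 members without and 8 members with the letter as a block, and DESeq2 called 0. ZNF622 had 19.9 footprints in serum starvation monosomes, against 981.6 in log phase monosomes, of which 962.0 were in the A library (-5.47 ± 1.70, SE, adjusted p = 1.00, edgeR). In the B libraries it had 53.6 CPM in serum starvation monosomes, against 54.9 CPM in log phase ones. ZNF326 had 12.5 against 3.9 footprints and ZNF518B 19.6 against 3.8, with log2 changes of 2.41 ± 0.90 and 2.69 ± 1.09 (SE, adjusted p = 1.00 for both, edgeR).

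In amino acid starvation the members' median change in monosomes was 0.01, against -0.01 for all tested genes, with 0.02 in the A and -0.21 in the B pair. By edgeR 0% of all genes and 0 members passed, with 0 members at an unadjusted p under 0.05, and with the letter as a block 1.03% of all genes and 0 members, 3 of them at an unadjusted p under 0.05. The smallest p-values were those of ZNF79, with 0.3 footprints against 5.6 in log phase, of ZNF428, with 30.9 against 104.9, and of ZNF644, a partner of the histone methyltransferases G9a and GLP, with 13.7 against 5.3. ZNF428 had a log2 change of -1.04 ± 0.53 and ZNF644 of 1.89 ± 0.99 (SE, unadjusted p = 0.0695 and 0.0774, edgeR).

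Whether the monosome over polysome ratio differed between conditions was tested as an interaction. In serum starvation against log phase it had a median of 0.50 for the members and -0.01 for all tested genes, with 0.04 in the A and 0.66 in the B pairs. Neither a member nor any other gene passed by edgeR (0% called), 3 members had an unadjusted p under 0.05, and 6 did with the letter as a block, where 0.021% of all genes and 0 members passed. These 3 were ZNF776, at 2.84 ± 1.05, ZNF622, at -5.73 ± 2.17, and ZNF326, at 2.55 ± 1.11 (SE, adjusted p = 1.00 for each, edgeR). The value of ZNF622 rests on the log phase monosome A library, at 3476 CPM. Its B monosome libraries had 53.6 CPM in serum starvation and 54.9 CPM in log phase. In amino acid starvation against log phase the median was 0.15, against 0.03 for all tested genes, with 0.35 in the A and -0.12 in the B pairs, and by edgeR 0% of all genes and 0 members passed, none at an unadjusted p under 0.05. With the letter as a block 1.15% of all genes and 0 members did. The lowest p-values belonged to ZNF829, with 0.5 monosome and 41.9 polysome footprints in amino acid starvation, to ZNF608, with 1.3 and 26.7, and to ZNF644, at 2.16 ± 1.25 (SE, unadjusted p = 0.103, edgeR).

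Other proteins that work with or resemble the family were read from 3 lists. Of 26 genes of the KRAB corepressor and heterochromatin machinery, 14 were tested over the mean of the 3 conditions, and 1 was higher and 3 lower in monosomes, with a median log2 ratio of -0.09, beside 17.0% of all tested genes higher and 21.8% lower. With the letter as a block 1 was higher and 5 lower, beside 23.9% and 30.3%. MTA1, a subunit of the NuRD complex, had 2.44 ± 0.50 (SE, adjusted p = 0.00178), and the heterochromatin proteins CBX5 and CBX3 had -1.80 ± 0.41 (adjusted p = 0.00376) and -1.11 ± 0.28 (adjusted p = 0.00715), all by edgeR. TRIM28, the corepressor that KRAB domains bind, had 71.1 monosome and 498.8 polysome footprints and a log2 ratio of 0.56 ± 0.56 (SE, adjusted p = 0.451, edgeR). Of 58 C2H2 proteins with other symbols, 7 were tested, and with the block 1 was higher and 2 lower. Without the block GTF3A, the 5S rRNA gene factor TFIIIA, was higher at 4.18 ± 0.36 (SE, adjusted p = 1.83e-06, edgeR) while KLF3, a repressor, was lower at -1.34 ± 0.28 (SE, adjusted p = 0.00223, edgeR). CTCF, the insulator protein, had -1.12 ± 0.61 (SE, adjusted p = 0.162, edgeR). Of 57 other sequence-specific transcription factors, 21 were tested, 5 of them higher and 4 lower, with a median of 0.41, and 8 higher and 5 lower with the block. Among these TFDP1, the E2F partner, had 2.19 ± 0.32 (SE, adjusted p = 0.000167), ATF1 had -1.59 ± 0.35 (adjusted p = 0.00290) and MAX, the MYC partner, had -1.53 ± 0.34 (adjusted p = 0.00291), all by edgeR.

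Coding ORFs held only part of the footprints in these genes. Of all footprints on kept ORFs of the members, truncated, variant and annotated coding ORFs together held 40.4% in monosomes and 52.0% in polysomes. Internal out-of-frame ORFs held 38.4% in monosomes, against 14.4% in polysomes, and upstream ORFs 4.95%, against 10.6%. The 9-nt ORF of ZNF281 described above accounts for 3367.2 of the 4558.9 monosome footprints on internal ORFs. Without that ORF coding ORFs held 56.5% in monosomes, against 52.0% in polysomes, and internal ORFs 14.0%, against 14.4%, so that the coding share turned from lower to higher in monosomes and the internal shares came close.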

How the data were processed

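Each column held expected counts of footprints per ORF, which the authors deposited as output of the ORF caller PRICE, and the p-value per ORF in the authors' deposited table is the caller's. Per the submitters' processing notes, Bowtie 1.0 and hg38 were used. Per the labels' protocols, fragments of 17 to 34 nt were kept, 14 PCR cycles were run and reads had 75 nt.

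Each codon was counted once, coding ORFs (CDS, Trunc, Variant) were summed per gene and rounded, and genes were named by position in RefSeq (GRCh38.p14), which placed 5894 of 6375 genes in 1 gene. edgeR 4.0.16 in R 4.3.3 fitted 6 group means over 12 libraries (TMM, filterByExpr with a minimum count of 10, Benjamini-Hochberg, 10 contrasts), and was tested on simulated data. DESeq2 1.42.0, other scalings and filters, a block by letter and fits without single libraries were alternatives. By letter, deviations from group means correlated at 0.77 to 0.866 among the polysome groups. They correlated at 0.161 to 0.422 in pairs with a monosome group, so the letters pair the libraries closely in polysomes only. Log2 values per letter have a prior count of 2.

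The members and lists were chosen with earlier results of these data known, among them a high median in serum starvation monosomes, which is no independent support. Named are the 12 members with the highest totals, called members (up to 10 per direction), the 3 smallest p per contrast, 3 on each side of the total of 50 and 3 genes per list; other members, and TRIM28, were chosen after their values were seen. No fold change is given where either side of a contrast held 3 footprints or less over its libraries; single condition groups within a side, and fits without libraries, can hold fewer. Finger patterns in proteins were not searched.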

Additional observations from a re-analysis of the deposited data

How the results depend on the processing

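Over the mean of the 3 conditions 18 members passed, and 6 did with a filter of 50 counts in 2 libraries, 3 with CDS-type ORFs alone, 5 without the log phase and amino acid monosome A libraries (an alternative chosen after seeing the data, as are those without ZNF622 and ZNF593OS and by the polysome filter level), 8 with totals of at least 200, 8 at the filter level in 2 polysome libraries, and 5 to 16 with 1 library left out (median 0.20 to 0.73, and 0.17 with no filter). In log phase, where 1 passed, 4 did by DESeq2, 2 with library-size scaling, 9 with the replicate block, 2 with the compared groups alone, and 0 without both A libraries or without ZNF622 and ZNF593OS. Its median of 0.48 was 0.81 with CDS-type ORFs, 0.08 with totals of at least 200 and 0.13 at the polysome filter level, and 0 to 3 calls and medians of 0.29 to 0.66 came without 1 library. In serum starvation, where 2 passed, 8 did by DESeq2, 4 with RLE scaling, 15 with the replicate block, 1 with CDS-type ORFs, 1 with the compared groups alone and 0 without both A libraries, with totals of at least 200 or at the polysome filter level (0 to 3 and medians of 0.14 to 1.29 without 1 library). In amino acid starvation, where 1 passed, 3 did by DESeq2, 0 with library-size scaling, 7 with the replicate block, 3 with the compared groups alone, and 0 without both A libraries or without ZNF622 and ZNF593OS (0 to 1 without 1 library). Its median of 0.68 was 0.48 with library-size scaling, 0.04 with no filter, 0.43 with the filter of 50, 0.84 with CDS-type ORFs, 0.38 without both A libraries, 0.42 with totals of at least 200, 0.47 at the polysome filter level and 0.46 to 0.68 without 1 library. Calls among all 4765 tested genes rose by DESeq2 too. For log phase 517 genes were higher in monosomes instead of 298, beside 5.88% of the members. After serum withdrawal 436 genes were higher instead of 205, beside 11.8% of the members. After amino acid withdrawal these were 471 instead of 265, beside 4.41% of the members. With the replicate block the shares of all genes higher rose to 16.5%, 14.4% and 15.5%, in the same order. Between starvation and log phase 0 members passed under every setting run. The medians there moved with library-size scaling to -0.05 (serum, polysomes), 0.24 (amino acid, polysomes) and -0.19 (amino acid, ratio), and in amino acid starvation monosomes to -0.20 with no filter and -0.27 without both A libraries. Without 1 library they ran from -0.28 to 0.06 and -0.17 to 0.03 in polysomes of serum and amino acid starvation, -0.37 to 0.72 and -0.21 to 0.07 in monosomes, and -0.26 to 0.78 and -0.17 to 0.20 for the ratio. ZNF484 reversed to -1.01 without both A libraries. Without 1 library ZSCAN12 ran from -0.90 (serum starvation monosome B) to 2.33 and ZNF234 from -0.36 (amino acid starvation monosome B) to 1.98. Scaling moved the median of all genes too: RLE raised it by 0.14 over the 3 conditions, 0.20 for log phase and 0.18 for serum starvation, and library-size scaling raised it by 0.32 for amino acid starvation in polysomes and lowered the ratio there, a shift of -0.34. Fewer genes tested or fewer samples enter by construction in the filters, ORF sets and fits without libraries; otherwise the cause was not tested. Monosome depth was a median of 12.5 footprints per member over 6 libraries, which limits the tests that use monosomes.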
